A study of Homo sapiens with 47 samples.

Results

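The 9 genes described here are forebrain and midbrain identity factors, followed through the culture of human pre-neural spinal cord cells: *OTX1*, *OTX2*, *HESX1*, *LHX2*, *LHX5*, *SIX3*, *FEZF1*, *EN1* and *EN2*. They are 9 of the 58051 genes listed in each library, were picked by name, and were found through their Ensembl identifiers. The question put to them was whether genes of the anterior neural plate are lost under signals that posteriorize cells. Poly(A) RNA of WA09 (H9) human embryonic stem cells (hESCs), an established line, was sequenced in 47 libraries of 16 groups. The group t0 held undifferentiated hESCs grown in mTESR1 on Matrigel without feeder cells. Every later group had been moved to N2B27 medium lacking vitamin A, with the WNT agonist CHIR-99021, rhFGF2, the retinoic acid receptor inverse agonist AGN193109 and the ROCK inhibitor Y-27632, so that no later group lacks any of these agents and their effects cannot be told apart. Cells after 36 h of this medium are called neuromesodermal progenitor (NMP)-like, and the cultures were then passaged as P1 to P10, in which pre-neural progenitors (PNPs) and, later, neural crest (NC) were described. At P1 the NMP gene *TBXT* was still at 2911, 2972 and 544 normalized counts. At P5 and P8, whole cultures were also parted by selective detachment with TrypLE into an epithelial fraction (EPI, enriched for PNPs) and a mesenchymal fraction (MES, enriched for NC). Each group had 3 libraries, from differentiation experiments r1, r2 and r3, except P9 with 2, and all came from 1 cell line.

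In the embryo, anterior neural plate is the state that neural tissue takes where WNT, FGF and retinoic acid signals are low, and these signals turn it to hindbrain and spinal cord. OTX2 sets the territory of forebrain and midbrain, HESX1, SIX3, FEZF1, LHX2 and LHX5 act within the forebrain and eye field, and EN1 and EN2 mark the midbrain and the border with the hindbrain. Several of them also have posts outside the head: OTX2 is present in primed pluripotent cells, EN1 in interneurons of the spinal cord and in skin precursors, and LHX2 in the mesenchyme of the limb bud. All but FEZF1, a zinc finger repressor, are homeodomain proteins.

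Libraries held 13029491 to 64082859 expected counts in total (median 47292229), and the r3 library of P6 was the shallowest. Levels are given below as normalized counts, which are rounded counts divided by a size factor for depth, and 3 counts were taken as the smallest number that a library can show. Limits of this kind cover counting error only. In bulk RNA, fewer cells of a type and less RNA per cell cannot be told apart. A call means an edgeR adjusted p under 0.01 and a change of at least 2-fold, and the p-values measure the spread between these experiments with 1 line. Experiment r1 stood apart from r2 and r3 early on. At 36 h, *TBXT* had 3187 normalized counts in r1 and 27411 and 27285 in r2 and r3, and at P1 *POU5F1*, the pluripotency factor OCT4, had 29516 in r1 and 643 and 168 in r2 and r3. At P10 the library of r1 stood apart, with a summed level of 21698 for 7 epithelial pre-neural genes against 362 and 274 in r2 and r3. The comparisons of 36 h, P5 and P10 with t0, of P5 with 36 h, of P9 with P8 and of the fractions were also fitted without experiment r1, and those of the time course without the r1 library of P10; these values are given below where a call changed and where r1 stood apart. Values of other time points are given with all libraries.

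All 9 genes passed the filter on low counts in the time course. Against t0 at 36 h, 2 of 9 were called lower, where 1.94% of the 21750 genes tested were called lower, and 0 of 9 were called higher by edgeR, where 1.88% were. At an unadjusted p under 0.05, where 26.1% of all genes lay, 2 of 9 were higher (*EN1* and *EN2*) and 5 lower (*OTX2*, *HESX1*, *FEZF1*, *SIX3* and *LHX5*), and DESeq2 called 1 of 9 higher, with 2.78% of all genes. At P1 the counts were 4 lower (8.45% of genes tested) and 2 higher (5.35%), at P5 they were 5 lower (13.4%) and 2 higher (10.0%), and at P10 they were 6 lower (14.9%) and 3 higher (14.1%). The median log2 fold change of the 9 was -3.02 at 36 h, -3.46 at P5 and -6.33 at P10, against 0.00, 0.01 and 0.01 over all genes tested. With genes that had at most 3 counts in every library of a group set to the smallest change that this allows, the median at P10 was -4.87. These comparisons all use the same 3 libraries of t0. Genes of pluripotent cells fell with them: of a list of 10, 2 were called lower at 36 h (median log2 fold change -1.60), 9 at P5 (median -8.36) and 10 at P10 (median -9.85), and their part in the result was not tested. The 9 genes fall into a set that was called lower from P2 or before onwards (*OTX2*, *HESX1*, *FEZF1*, *SIX3* and *LHX5*), *OTX1*, the engrailed pair, which came on, and *LHX2*, which was lowest at P2 and highest at P9 and P10. *OTX1* dropped by 36 h in r2 and r3, while in r1 it lay above its t0 level from 36 h to P4.

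**Figure D1:**
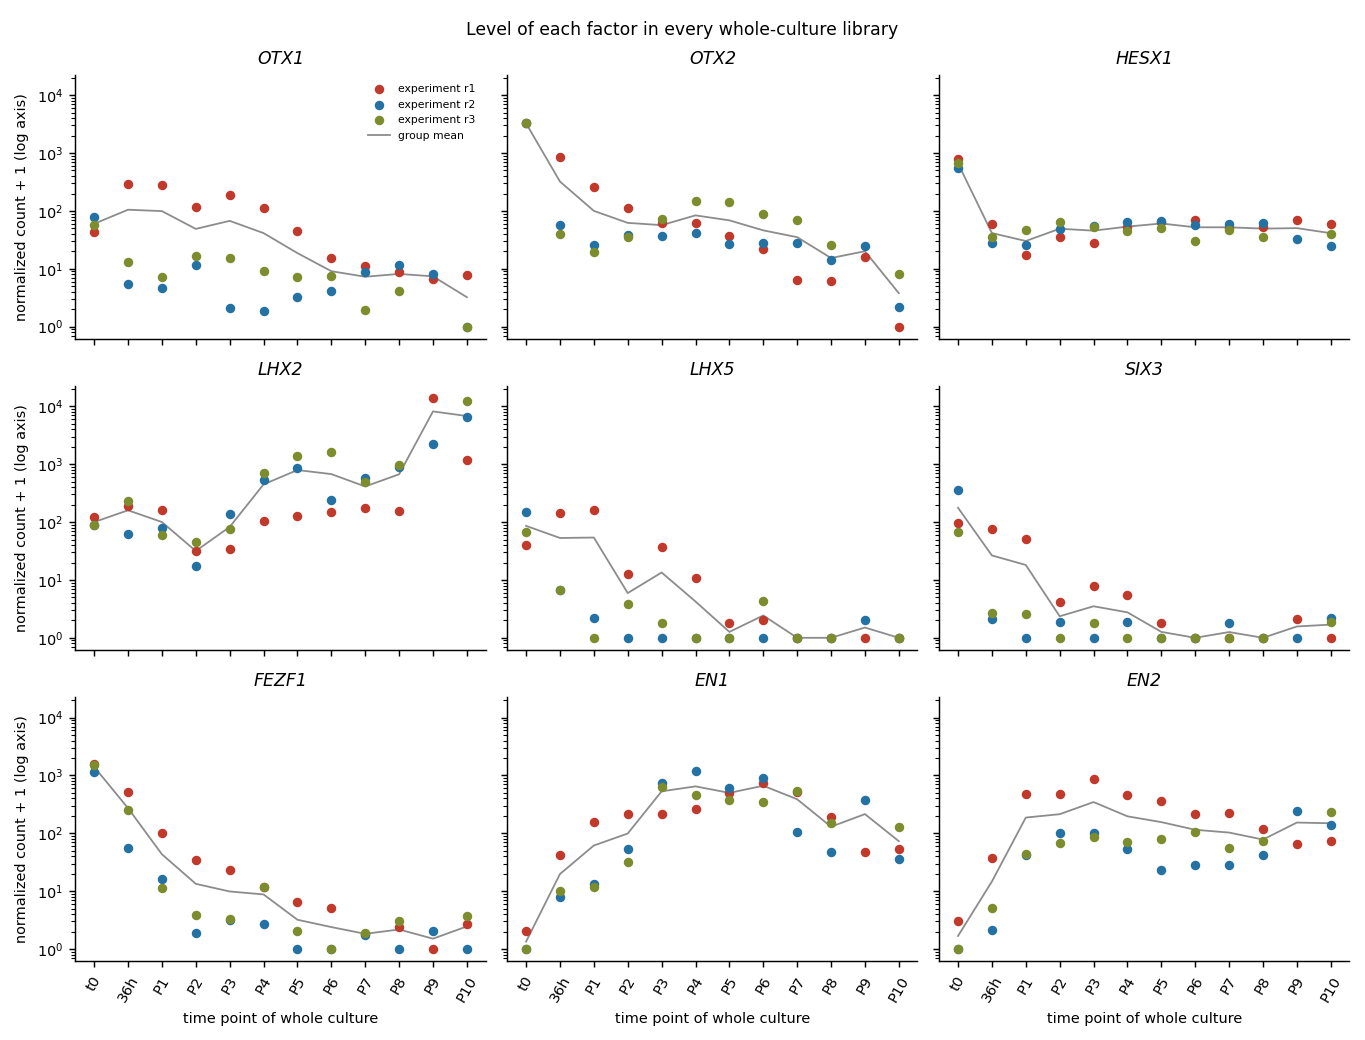
Normalized count plus 1 on a log axis for each of the 9 genes in the 35 whole-culture libraries, by time point; points are libraries coloured by experiment and the grey line joins group means. OTX2, HESX1 and FEZF1 start high at t0 and drop, EN1 and EN2 start at 0 to 2.03 and rise, LHX2 reaches 1201 to 14128 at P9 and P10, and r1 lies above r2 and r3 in OTX1 and EN2 at 9 of the 10 later time points with 3 libraries.

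*OTX2* (ENSG00000165588, chr14:56799905-56810479, minus strand, GRCh38) encodes the homeodomain protein that specifies forebrain and midbrain. It had 3245, 3259 and 3280 normalized counts in r1, r2 and r3 at t0, in undifferentiated cells. At 36 h it had 868 in r1 and 55.5 and 39.4 in r2 and r3. All 3 libraries of 36 h lay below all 3 of t0, with r1 well above the others, and the mean change of -3.57 ± 1.07 (log2, SE) was not called (edgeR adjusted p = 0.0294). Without experiment r1 the change was -6.09 and was called (edgeR adjusted p = 0.000123). From P1 to P10 *OTX2* was called lower than at t0 at each of the 10 time points. At P5 the libraries held 35.8, 25.3 and 142 normalized counts, a 48.1-fold lower mean that was 106-fold lower without r3 (log2 fold change -5.87 ± 1.18, edgeR adjusted p = 0.000271), which was no longer called without r2 (edgeR adjusted p = 0.0368). At P10 they held 0, 1.18 and 7.17, and the log2 fold change was -10.35 ± 1.5 (edgeR adjusted p = 4.38e-06). In the order of the 16 group means, t0 was the only group set apart from its neighbour, and the other neighbours overlapped.

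*HESX1* (ENSG00000163666, chr3:57197838-57227606, minus strand), a paired-like homeodomain repressor of the anterior neural plate and the pituitary, dropped within 36 h and then stayed. It had 781, 543 and 660 normalized counts at t0 and 59.5, 27.2 and 34.5 at 36 h, a 16.4-fold lower mean (log2 fold change -4.04 ± 0.45, edgeR adjusted p = 1.6e-06). It had the smallest SE of the 9 genes, and it was called lower at all 11 time points after t0. From 36 h to P10 every group mean lay between 29.2 and 59.7, and no step between neighbouring time points of the culture after 36 h was called. A low level remained in every library at P10, with 57.7, 23.7 and 39.4.

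*FEZF1* (ENSG00000128610, chr7:122301394-122310691, minus strand), a zinc finger repressor of forebrain and olfactory development, had falling means from t0 to P3. No step between neighbouring time points of the culture after 36 h was called, and that from 36 h to P1 was -2.85 (log2, edgeR adjusted p = 0.0121). It had 1586, 1136 and 1499 normalized counts at t0, and 507, 54.4 and 251 at 36 h, a 5.19-fold lower mean, or 8.62-fold without r1 (log2 fold change -3.02 ± 0.66, edgeR adjusted p = 0.00377). The groups did not overlap, but the call was lost without r2 (edgeR adjusted p = 0.198) or without r3 (edgeR adjusted p = 0.0655), without the experiment as a term (edgeR adjusted p = 0.133) and with the compared groups alone (edgeR adjusted p = 0.0379). The libraries of P1 held 102, 14.9 and 10.2, and those of P5 held 5.57, 0 and 1.03. At P7, P8, P9 and P10 no library had more than 3 counts, which puts P10 at least 484-fold lower than t0. A part of this signal could belong to another gene: 20.6% of the 75-base stretches of *FEZF1* transcripts also occur in *FEZF1-AS1*, which runs on the opposite strand and reached 1224.3 normalized counts, and whether reads were counted by strand is not given in the sources used here.

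*SIX3* (ENSG00000138083, chr2:44941898-44946077, plus strand) is a homeodomain protein of the eye field and the rostral forebrain that represses WNT genes. At t0 it was low and spread, with 96.6, 364 and 66.9 normalized counts. At 36 h it had 73.8 in r1 and 1.13 and 1.64 in r2 and r3, so that the r1 library overlapped t0, and the log2 fold change of -4.42 ± 1.08 fell just outside the call (edgeR adjusted p = 0.0101). Without experiment r1 it was -6.77 and was called (edgeR adjusted p = 0.00115), as it was without the r1 library of P10 (edgeR adjusted p = 0.00455). It was called lower from P1 to P10. From P5 on no whole-culture library had more than 3 counts, and the level at P5 was at least 60.1-fold lower than at t0 (edgeR adjusted p = 4.25e-05), or at least 29.8-fold without r2.

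*LHX5* (ENSG00000089116, chr12:113462034-113472280, minus strand), a LIM-homeodomain protein of the forebrain that is also used in spinal interneurons, had 39.6, 148 and 67.7 normalized counts at t0. In r1 it was above its t0 level of 39.6, with 145 at 36 h and 158 at P1. In r2 and r3 it had 5.67 and 5.75 at 36 h and 1.24 and 0 at P1. The change at 36 h was -3.24 ± 1.19 (log2, edgeR adjusted p = 0.087), and -4.19 without experiment r1 (edgeR adjusted p = 0.0237). It was called lower from P2 to P10. At P5 it was at least 29.1-fold lower than at t0, a limit of 19.6-fold to 33.8-fold on leaving out an experiment (edgeR adjusted p = 0.000456), and this call was lost without r2 (edgeR adjusted p = 0.0274), without r3 (edgeR adjusted p = 0.0123) and without the experiment as a term (edgeR adjusted p = 0.0172). The call at P10, at least 29.3-fold lower, was lost without r2 (edgeR adjusted p = 0.0169), without the experiment as a term (edgeR adjusted p = 0.0103) and with the compared groups alone in the fit (edgeR adjusted p = 0.0209). No library of P7, P8 or P10 had a single count. An overlapping gene on the other strand, *LHX5-AS1*, had up to 21.4 normalized counts.

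*OTX1* (ENSG00000115507, chr2:63050057-63057836, plus strand), the paralogue of *OTX2* with a part in cortex and inner ear, had only 41.7, 78.7 and 56.2 normalized counts at t0, and the experiments then parted. In r1 it stood at 295 at 36 h, 285 at P1, 117 at P2, 184 at P3 and 112 at P4. In r2 and r3 it lay between 0.843 and 15.9 over the same time points. Group means of 104 at 36 h and 98.3 at P1 therefore lay above t0 while the fitted log2 fold changes, which average over experiments, were -1.36 ± 1.08 and -1.62 ± 1.10 and were not called (edgeR adjusted p = 0.463 and 0.273); without the experiment as a term the 36 h value turned to 0.83, and without experiment r1 it was -3.06 (edgeR adjusted p = 0.0469). At P5 the change of -3.29 was not called (edgeR adjusted p = 0.025) and that of -4.05 without r1 was (edgeR adjusted p = 0.0074). The gene was called lower at P7 and P10 alone. At P10 it had 6.68, 0 and 0 (log2 fold change -6.33 ± 1.48, edgeR adjusted p = 0.000955), and without r3 this was no longer called (edgeR adjusted p = 0.0458), nor was it without the experiment as a term (edgeR adjusted p = 0.0533) or with the compared groups alone (edgeR adjusted p = 0.0459); it was called without the r1 library of P10 (-8.51, edgeR adjusted p = 0.0067).

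The lead of r1 was shared by several of the 9 genes and not by others. Over 36 h to P4 the mean of r1 was 44.2 times that of r2 and r3 for *LHX5*, 40.2 times for *SIX3*, 25.5 times for *OTX1*, 8.15 times for *EN2*, 5.36 times for *OTX2* and 3.84 times for *FEZF1*. It was 0.826 times for *HESX1*, 0.566 times for *EN1* and 0.534 times for *LHX2*. For *EN1* the mean hides a change of order, since r1 was the highest library at 36 h (40.4 against 6.80 and 9.04), P1 and P2 and the lowest at P3 and P4. Of 30 other anterior neural genes, 4 were at 3 counts or fewer at 36 h in r1, 16 in r2 and 13 in r3. At P1 the numbers were 12, 14 and 12. At 36 h *EMX2* had 295, 7.93 and 9.86 in r1, r2 and r3, *FEZF2* had 258, 0 and 2.46, and *PAX6* had 272, 2.27 and 3.29. Others of the list went the other way, among them *DKK1* (349, 7654 and 45451) and *GSC* (29.7, 163 and 87.1). In the same libraries the summed level of 10 neuromesodermal and caudal genes at 36 h was 32739 in r1 and 127686 and 127532 in r2 and r3, and none of these genes was at 3 counts or fewer, while at P1 it was 90581 in r1 and 47492 and 34593 in r2 and r3, a lead that rests on *NKX1-2* (56629 against 838 and 67.2), and *TBX6* was at 139 in r1 and 8993 and 11178 in r2 and r3. The sum of 10 pluripotency genes at 36 h was 139966, 129846 and 63113 in r1, r2 and r3, so that r1 and r2 were close, and at P1 it was 101576 in r1 and 19737 and 15966 in r2 and r3, where *NANOG* and *PRDM14* were at 3 counts or fewer. The part of these cells in the levels of r1 was not tested.

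*OTX1* with *OTX2* and *EN1* with *EN2* are paralogue pairs, and reads of 75 bases could be assigned to the wrong partner if the pair shared long stretches. In the coding sequences of GENCODE 29 (GRCh38) the longest stretch without a difference was 14 bases for the OTX pair and 32 bases for the engrailed pair, and no 75-base stretch of any of the 4 genes occurred in another gene. The shared stretches are printed because they bound how far the pairs can be confused, and both lie within single exons.
OTX1 (chr2:63054139-63054152) and OTX2 (chr14:56804234-56804247): gacatcttcatgcg
EN1 (chr2:118843038-118843069) and EN2 (chr7:155462556-155462587): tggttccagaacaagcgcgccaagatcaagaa

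*EN1* (ENSG00000163064, chr2:118842171-118847678, minus strand), a homeodomain repressor of the midbrain and of the border with the hindbrain, was at 1.02, 0 and 0 normalized counts at t0. It had 40.4, 6.80 and 9.04 at 36 h, at least 6.74-fold higher (at least 2.97-fold without r1), and the groups did not overlap, but this was not called (edgeR adjusted p = 0.0501). It was called higher than at t0 at each of the 10 passages. The libraries of P3 held 218, 731 and 640, those of P4 held 266, 1214 and 456, and those of P6 held 724, 917 and 345. P5 was at least 178-fold higher than t0 (edgeR adjusted p = 2.24e-05) and 26.5-fold higher than 36 h, or 62.5-fold without r1 (log2 fold change 4.89 ± 1.12, edgeR adjusted p = 0.00171), with 503, 615 and 375. Levels were lower again at P8, with 192, 45.9 and 148, and at P10, with 53.5, 34.3 and 128, and the call at P10 was lost without r3 (edgeR adjusted p = 0.0328) and with the compared groups alone (edgeR adjusted p = 0.0115). The step from P5 to P8 did not pass (log2 fold change -2.03 ± 0.97, edgeR adjusted p = 0.365).

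*EN2* (ENSG00000164778, chr7:155458129-155464831, plus strand), the second engrailed protein, with a main post in midbrain and cerebellum, was at 2.03, 0 and 0 normalized counts at t0. At P1 it had 474 in r1 and 41.0 and 42.2 in r2 and r3, at least 66.7-fold higher than t0 (edgeR adjusted p = 9.7e-05). That limit rests on r1, and without it the level was at least 15.6-fold higher. Its highest group mean was at P3, with 849, 102 and 84.8. This rank rests on r1, and in the order of the 16 group means all neighbours overlapped. It too was called higher than t0 at all 10 passages, though at P10 not with the compared groups alone (edgeR adjusted p = 0.0156), and r1 was the highest library at 9 of the 10 time points with 3 libraries. From 36 h to P5 the log2 fold change was 3.54 ± 0.91 (edgeR adjusted p = 0.00445), with overlapping groups. Of the 9 genes, 2 were called higher (*EN1* and *EN2*) and 1 lower (*FEZF1*) from 36 h to P5, where 5.63% and 7.92% of the genes tested were called. Both rises were lost without r2 (edgeR adjusted p = 0.0289 for *EN1* and 0.0361 for *EN2*) and without r3 (edgeR adjusted p = 0.0412 for *EN1* and 0.089 for *EN2*), and that of *EN2* also without the experiment as a term (edgeR adjusted p = 0.0534).

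*LHX2* (ENSG00000106689, chr9:124001670-124033301, plus strand), a LIM-homeodomain protein of the eye field and cortex and also of limb mesenchyme, followed a course of its own. It had 120, 88.8 and 88.5 normalized counts at t0 and 30.9, 16.2 and 44.9 at P2, its lowest group. In r2 and r3 it rose to 531 and 709 at P4 and to 858 and 1396 at P5, while r1 stayed between 103 and 175 from P4 to P8. The change from t0 to P5, 2.56 ± 0.93 on the log2 scale, was not called (edgeR adjusted p = 0.0259), although every library of P5 lay above every library of t0, and it was called without r1 (log2 fold change 3.62, edgeR adjusted p = 0.000866). From 36 h to P5 the change of 1.96 ± 0.91 was not called (edgeR adjusted p = 0.102), and without r1 it was 3.04 and was called (edgeR adjusted p = 0.0038).

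At P9 *LHX2* had 14128 normalized counts in r1 and 2247 in r2, and at P10 it had 1201 in r1 and 6650 and 12573 in r2 and r3. The experiment with the lowest level from P3 to P8 thus had the higher of 2 levels at P9 and the lowest at P10. All 5 libraries lay above all 3 of P8, which had 153, 886 and 970. Against t0 the mean of P9 was 82.6-fold higher (log2 fold change 6.85 ± 1.12, edgeR adjusted p = 2.16e-05, n = 2 libraries of P9), 25.3-fold without r1 and 136-fold without r2, and that of P10 was 68.7-fold higher, 108-fold without r1 and 37.6-fold without r3 (log2 fold change 5.66 ± 1.04, edgeR adjusted p = 8.25e-05). Without the r1 library of P10 the latter was 6.16 (edgeR adjusted p = 4.71e-05), and without experiment r3 it was 4.91 and not called (edgeR adjusted p = 0.0112), nor was it with the compared groups alone in the fit (5.67, edgeR adjusted p = 0.018). From P8 to P9 the rise was 4.45 ± 1.04 (log2) and was not called (edgeR adjusted p = 0.0111), so that 0 of 9 genes were called higher at that step by edgeR against 0.993% of all genes tested, while 1 of 9, *LHX2*, had an unadjusted p under 0.05, as 26.3% of all genes did. It was called by DESeq2 (log2 fold change 4.36, adjusted p = 0.000337), which called 2.6% of all genes higher, and, by edgeR, without the r1 library of P10 (4.31, edgeR adjusted p = 0.00638). Without experiment r1 it was 1.56 with an edgeR adjusted p of 0.2.

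Marker lists of other cell types were read over the same passages. From P8 to P9, edgeR called 2 of 10 neural crest genes higher (median log2 fold change 0.78) and 1 of 8 cranial placode genes (median 1.27), and 0 of 9 somite and limb genes (median 1.84, or 1.07 at bounds) and 0 of 11 spinal and neuronal genes (median 0.22). Over all genes tested, 0.993% were called higher at this step, and the median log2 fold change was -0.01. The neural crest sum was 17607, 47311 and 73527 at P8, 65020 and 75128 at P9, and 25487, 57648 and 65819 at P10. Of the placode list, *DLX3* had a mean of 28.2 normalized counts at P8 and 434 at P9, and *DLX5* 1247 and 4233. In the r1 and r2 libraries of P9, and in r1, r2 and r3 of P10, the sum of 9 genes of somite and limb mesenchyme was 32971, 42137, 20376, 41773 and 47327, against 17760 to 23042 at P8, most of it *PRRX1*, a mesenchyme gene. Genes of the list with a part in somites had means that differed in direction from P8 to P9: 224 and 8.96 for *MEOX1*, 251 and 4.04 for *MEOX2*, 7.9 and 2.73 for *TCF15*, 74.2 and 402 for *TBX18* and 0 and 3.17 for *PAX1*. The sum of 11 genes of spinal interneurons and neurons was 3669 to 8059 at P9 and 8226 to 10976 at P10, against 393 to 3164 at P8, and *DCX* and *STMN2*, which mark neurons of any region, held much of it (4312 and 5124 of 10025 in r2 of P10). The means of the interneuron genes of the list differed in direction over P8, P9 and P10. *LHX1* and *TLX3* were at 3 counts or fewer in each library of these passages. *EVX1* had means of 50.4, 495 and 416, and *GATA3* of 0, 114 and 143. *FOXP2* had means of 69.6, 18.3 and 14.7, and *PAX2* of 51.7, 23.4 and 40.9. The mean of *LBX1* was also lower at P9 and P10 than at P8, where r1 held most of it (30.3). *LHX9*, the closest relative of *LHX2* with the same double post in forebrain and limb, had 14.2 normalized counts in r1 of P10 and 3159 and 4971 in r2 and r3. The sum of 7 epithelial pre-neural genes was 908 and 929 at P9, and 21698 in r1 and 362 and 274 in r2 and r3 at P10. Of the limb genes in the mesenchyme list, *TBX4* had means of 4.11, 132 and 65.8 at P8, P9 and P10, and *PITX1* of 7.62, 102 and 109. At P9 *TBX4* had 254 in r1 and 9.1 in r2, and *PITX1* had 192 and 11.1. *TBX5* had means of 9.89, 14.7 and 8.11 over these passages. *TBX5* and *PAX1* were at 3 counts or fewer in r1 of P10. The part of these cells in the rise of *LHX2* was not tested.

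**Figure D2:**
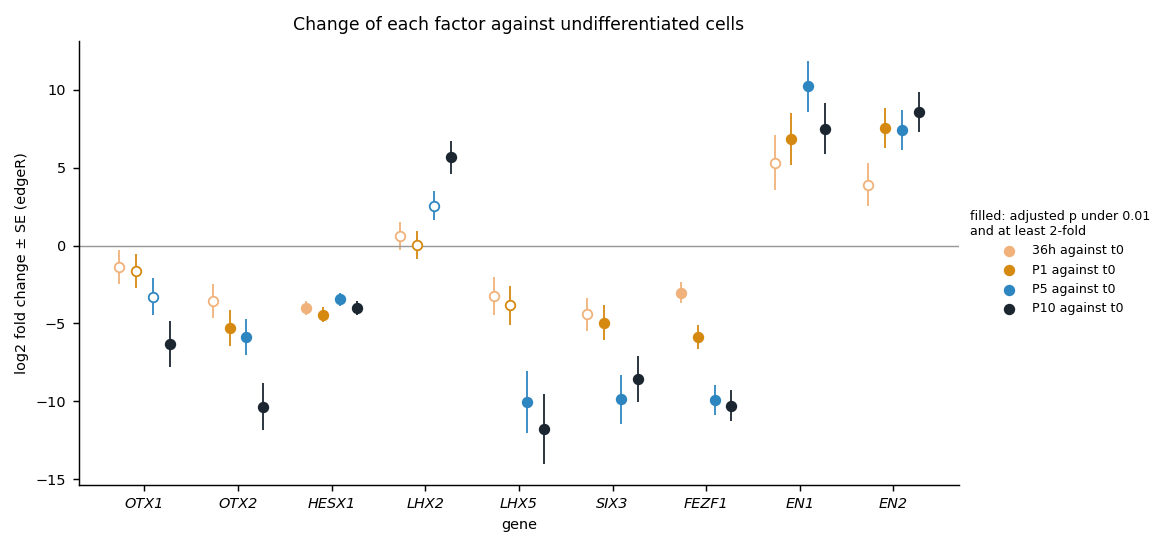
Fitted log2 fold change against t0 with its SE from edgeR, for 36 h, P1, P5 and P10, with filled points for an adjusted p under 0.01 and at least 2-fold. Fitted values of EN1 and EN2, of LHX5 and SIX3 at P5 and P10 and of FEZF1 at P10 rest on a group with at most 3 counts a library and are not bounds; HESX1 lies between -4.44 and -3.46 at these 4 times.

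Sequences just upstream of these genes were read, since the members moved in groups. RefSeq's table of GRCh38.p14 gave windows before the transcript start for 6 of the 9 symbols. Of the 9 windows of 250 bases, the OTX2 windows held 50.0% and 47.2% G and C and the FEZF1 windows 53.6% and 52.8%, while that of LHX2 held 70.4% and that of EN2 81.2%, and the median over 35116 windows was 58.0%. HESX1 had a window of each kind, with 43.6% and 79.2%, and that of OTX1 had 75.2%. The letters searched on both strands were CTTTGA, a TCF/LEF core (found in 11.2% of all windows), TAATCC, the OTX type of homeodomain site (5.62%), TAATTA, a homeodomain core (4.35%), and ATGCNAAT, the octamer (2.69%). None was found in 8 of the 9 windows, and the HESX1 window with 43.6% G and C held TAATTA at 2 places, starting 166 and 74 bases before the transcript start. A match is a description and not a binding site. Windows of a pair of genes that fell and a pair that rose are shown 5′ to 3′, with TAATTA in capitals.
OTX2 (chr14:56805668-56805917, minus strand): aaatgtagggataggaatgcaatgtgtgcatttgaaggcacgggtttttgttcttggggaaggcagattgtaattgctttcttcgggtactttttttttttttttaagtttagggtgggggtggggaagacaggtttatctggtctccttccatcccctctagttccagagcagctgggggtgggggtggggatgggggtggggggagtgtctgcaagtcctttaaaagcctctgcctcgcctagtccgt
HESX1 (chr3:57199979-57200228, minus strand): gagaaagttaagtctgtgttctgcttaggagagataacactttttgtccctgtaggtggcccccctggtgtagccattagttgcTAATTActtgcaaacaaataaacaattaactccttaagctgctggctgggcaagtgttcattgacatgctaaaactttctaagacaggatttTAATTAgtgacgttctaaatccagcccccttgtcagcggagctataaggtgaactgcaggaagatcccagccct
LHX2 (chr9:124011518-124011767, plus strand): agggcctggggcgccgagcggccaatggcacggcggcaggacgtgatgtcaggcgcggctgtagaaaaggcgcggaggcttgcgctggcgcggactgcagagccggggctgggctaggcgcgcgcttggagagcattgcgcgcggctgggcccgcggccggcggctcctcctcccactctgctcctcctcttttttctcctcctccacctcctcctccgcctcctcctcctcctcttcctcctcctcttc
EN2 (chr7:155457879-155458128, plus strand): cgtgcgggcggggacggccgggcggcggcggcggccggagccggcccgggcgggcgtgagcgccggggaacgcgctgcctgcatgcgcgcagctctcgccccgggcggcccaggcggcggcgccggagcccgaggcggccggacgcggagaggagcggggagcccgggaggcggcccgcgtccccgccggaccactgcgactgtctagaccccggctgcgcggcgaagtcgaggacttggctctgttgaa

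Levels of the 9 genes beside each other were read in TPM, the deposited unit that is scaled for length and depth. Their sum was 124 to 148 TPM in the libraries of t0, 5.52 to 52.5 at 36 h and 5.85 to 15.5 at P2, and it was 44.6 to 370 at P10. At t0, *OTX2* made up 43.3% to 49.2% of the sum, *FEZF1* 23.5% to 29.8% and *HESX1* 18.2% to 22.9%. At P3 the engrailed pair was prominent, with *EN1* at 17.8% to 61.5% and *EN2* at 5.5% to 47.5%, and *EN2* led in r1 and *EN1* in r2 and r3. At P10 *LHX2* alone was 88.5% to 98.1% of the sum.

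**Figure D3:**
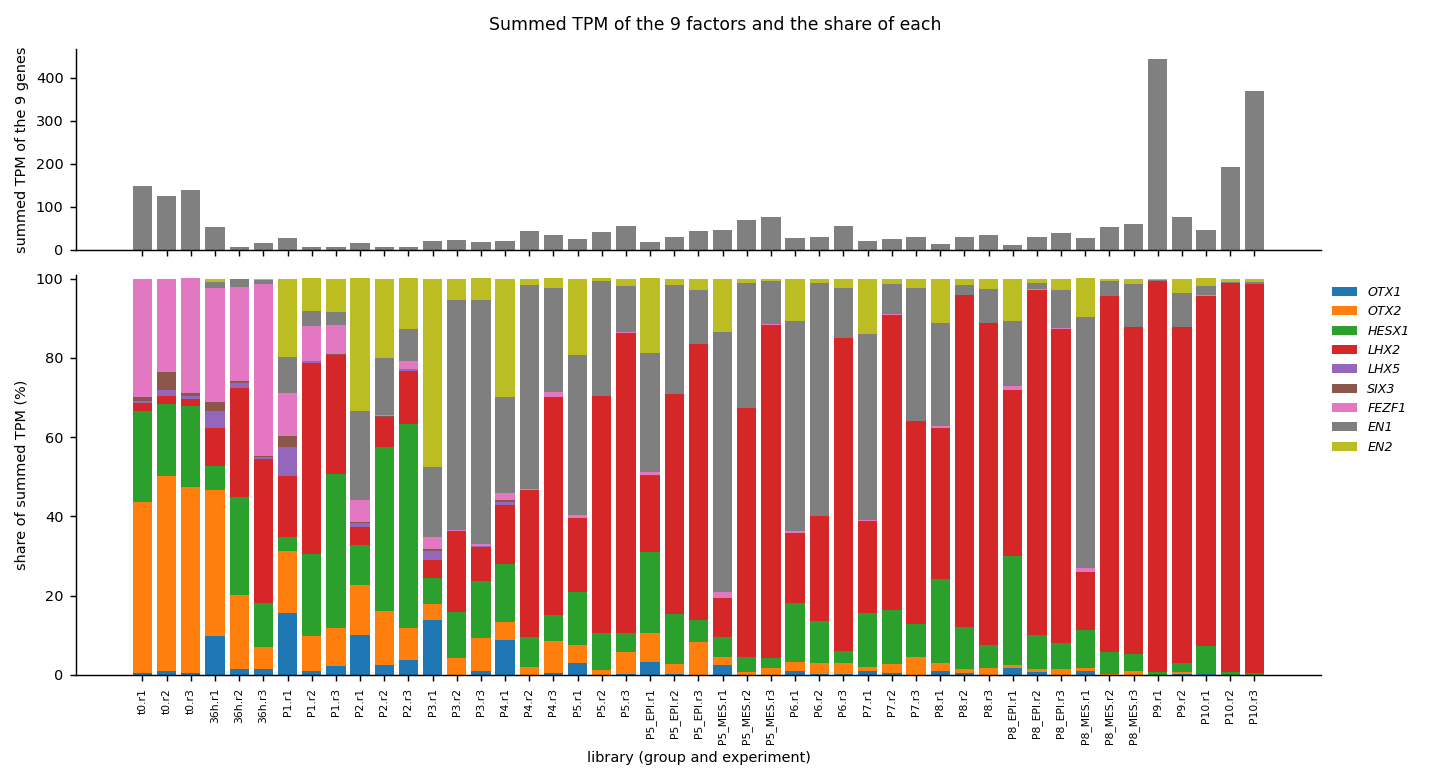
Summed TPM of the 9 genes in each of the 47 libraries (upper bars) and the percentage of that sum from each gene (lower stacked bars). The sum is 124 to 148 TPM at t0, where OTX2, FEZF1 and HESX1 make up most of it, and 44.6 to 370 TPM at P10, where LHX2 is 88.5% to 98.1%.

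The fractions were compared within each experiment. The labels of the fractions were checked on markers: at P5, *SOX10*, a NC gene, had 197, 418 and 1426 normalized counts in MES and 29.4, 48.5 and 141 in EPI, and *SOX2*, a progenitor gene, had 5328, 4207 and 1953 in MES and 14959, 12032 and 10299 in EPI. At P8, *SOX10* had 209, 173 and 501 in MES and 19.6, 66.7 and 76.9 in EPI, and 6 of the 10 NC genes (*SOX10*, *TFAP2A*, *TFAP2B*, *SNAI1*, *SNAI2* and *TWIST1*) were higher in MES in 3 of 3 experiments. The others were not: *SOX9* had means of 6675 in MES and 7802 in EPI, *FOXD3* had 1576 and 1666, *ETS1* was lower in MES in r2, and the sum of the 10 was lower in MES in r2 (44038 against 48184). *PAX3*, the last of the NC list and also a gene of the dorsal neural tube, was lower in MES in each experiment, with means of 2643 against 5479 at P5 and 7448 against 9332 at P8. The 7 epithelial genes still summed to 4574 to 12758 in MES at P5, against 24621 to 36838 in EPI, so the fractions are enriched and not pure. *LHX5*, *SIX3* and *FEZF1* were too low for the test, which leaves 6 of the 9 genes. Of these, 0 were called higher or lower in MES at P5 and 0 at P8, where 0.0% of the 18885 genes tested were called in either direction at each passage by edgeR. At an unadjusted p under 0.05 there were 4894 genes at P5 and 2261 at P8, an adjusted p under 0.05 with a 2-fold change gave 323 higher and 362 lower at P5 and 0 at P8, and DESeq2 called 416 higher and 416 lower at P5 and 54 higher and 7 lower at P8. Among the 6 genes, 1 had an unadjusted p under 0.05 at P5 (*LHX2*) and 1 at P8 (*EN1*), and DESeq2 called 0.

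*EN1* was higher in MES in each experiment at both passages. At P5 it had 1677, 1209 and 448 normalized counts in MES against 295, 431 and 311 in EPI, groups that did not overlap, with a log2 fold change of 1.61 ± 0.80 (edgeR adjusted p = 0.243). At P8 it had 873, 110 and 370 against 83.7, 26.3 and 206 (log2 fold change 1.97 ± 0.85, edgeR adjusted p = 0.413). The MES fraction of P5 held the highest mean of *EN1* among the 16 groups, 1111 ± 620 (SD, n = 3). *LHX2* had 149, 1580 and 1865 in MES and 125, 572 and 972 in EPI at P5, higher in MES in 3 of 3 experiments, and 119, 1578 and 1735 against 132, 874 and 1020 at P8, higher in 2 of 3. Its log2 fold changes were 0.90 ± 0.25 (edgeR adjusted p = 0.0632) and 0.53 ± 0.25 (edgeR adjusted p = 0.445), and DESeq2 gave an adjusted p of 0.0088 at P5 with a change of 0.89, which is short of 2-fold.

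*HESX1* was lower in MES in 3 of 3 experiments at both passages by a small amount, with log2 fold changes of -0.43 ± 0.20 at P5 and -0.07 ± 0.21 at P8 (edgeR adjusted p = 0.23 and 0.919). *OTX1*, *OTX2* and *EN2* went one way in some experiments and the other way in others. Log2 fold changes of these 3 genes lay between -0.79 and 0.79 over both passages, with SE of 0.54 to 1.11. The difference of the MES to EPI change between P8 and P5 was tested for all 6 genes and none passed (edgeR adjusted p from 0.875 to 0.997).

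**Figure D4:**
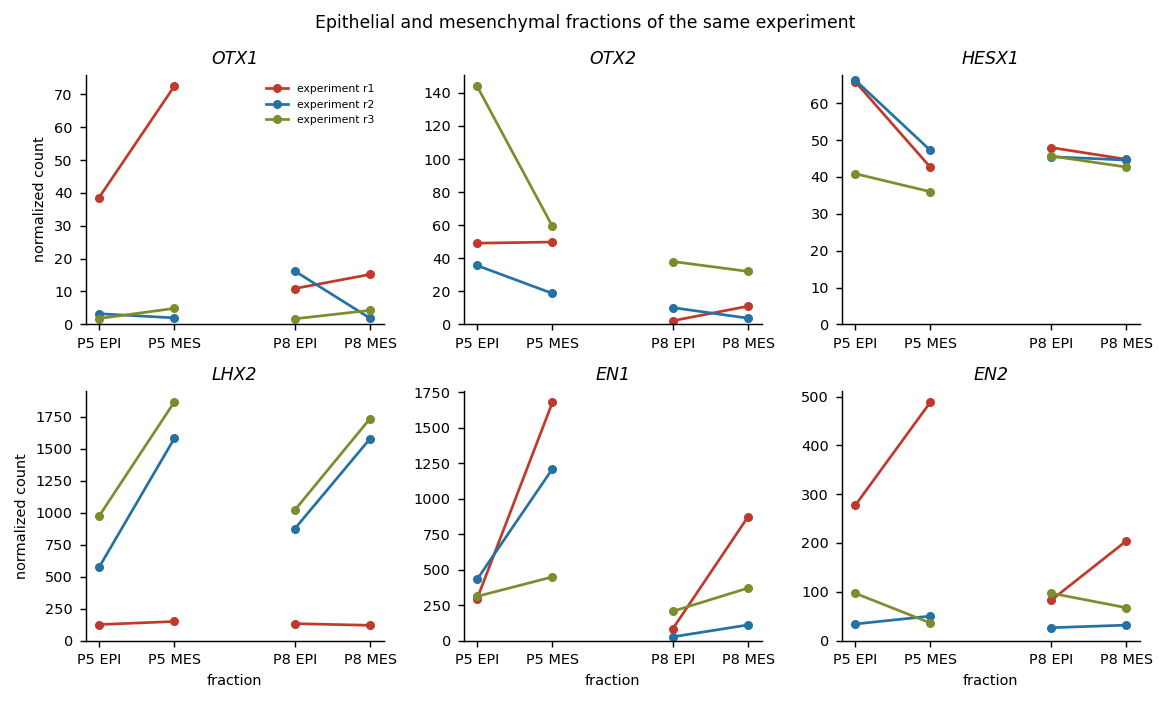
Normalized counts of the 6 genes tested in the EPI and MES fractions of P5 and P8, with lines joining the fractions of 1 experiment. EN1 goes up from EPI to MES in all 6 pairs, LHX2 goes up in r2 and r3 and stays near 119 to 149 in r1, and HESX1 goes slightly down in all 6 pairs.

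A wider list of 30 other anterior neural genes, among them secreted WNT antagonists, had mixed directions, and 26 of them were tested. At 36 h, 4 were called higher (1.88% of all genes tested) and 4 lower (1.94%) than t0. The median log2 fold change was 0.50 against 0.00 over all genes. At P5, 7 were higher (10.0%) and 6 lower (13.4%), with a median of 1.63 against 0.01. At P10, 8 were higher (14.1%) and 7 lower (14.9%), with a median of 1.17 against 0.01. With genes at 3 counts or fewer set to their bound, the median at P10 was 1.63. Those called lower at 36 h were *EMX1*, a cortical homeodomain gene (217 to 3.91 normalized counts in the mean), *SHISA2*, an inhibitor of WNT and FGF receptors (2196 to 47.1), *SFRP1*, a secreted WNT antagonist (63145 to 4306), and *SIX6*, a relative of *SIX3* in the eye field (48.6 to 6.72). Those called higher were *DKK1*, a WNT antagonist that WNT itself induces (15.7 to 17818, a mean that rests on r3, with 349, 7654 and 45451 in r1, r2 and r3), *GSC*, an organizer gene (1.86 to 93.3), *GBX2*, the hindbrain gene that opposes *OTX2* at the midbrain border (63.1 to 2386), and *PAX2*, a midbrain border gene (4.76 to 90.2).

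At P5 the called genes of the list with the largest fitted falls were *EMX1* and *SIX6*, both without a count in any library of P5, *SHISA2* (15.9), *PAX6*, a forebrain and spinal cord gene (10.9 against 55.6 at t0, of which 32.6, 0 and 0 in r1, r2 and r3), and *SFRP1* (3093). Those with the largest fitted rises were *ZIC1*, a gene of neural plate border and dorsal neural tube (28.1 to 12088), *LMX1B*, of midbrain and dorsal limb (12.3 to 5049), *DKK1* (1011), *PAX2* (343) and *VAX2*, an eye gene (0.595 to 37.0), whose place rests on a fitted fold over at most 3 counts in each library of t0. *GBX2* had 2420 at P5.

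Over the 16 groups, the genes most like each member were named by Pearson's r of log2(group mean + 1) among 15115 genes with a group mean of at least 100, as a description in which groups share experiments and libraries. For *OTX2* they were *TMEM143* (r = 0.969), *FAM155B* and *ZNF883* (both 0.964), for *HESX1* they were *HTR1A* (0.964), *ZNF398* (0.957) and *ZBTB44* (0.951), and for *FEZF1* they were *ARHGAP12* (0.985), *EGLN3* (0.977) and *PFDN4* (0.974), all of them highest at t0. For *SIX3* they were *ATP6V1C1* (0.978), *OTUD6B* (0.975) and *BEND4* (0.974), and for *OTX1* they were *ZNF254* (0.968), *AC106872.5* (0.962) and *ABCC5* (0.960). For *EN1* they were *EFNB2* (0.946), *ZNF37A* (0.945) and *ELAC1* (0.938), and for *EN2* they were *ODF2* (0.978), *MROH8* and *SDCBP2-AS1* (both 0.976). For *LHX2* they were *SEC22C* (0.984), *TNFAIP8* (0.974) and *FGF7* (0.961), highest at P9 or P10. No member was among the 3 most like another, and *LHX5*, whose highest mean was 85.2, was too low for this comparison.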

How the data were processed

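Poly(A) libraries were read as 75-base single reads in 47 samples. The submitters' processing notes name cutadapt 1.16, STAR 2.5.2b and RSEM 1.3.0. RSEM's expected counts per gene were deposited by the authors and not normalized; 9.3% of values were not whole, and they were rounded. The TPM deposited by the authors, scaled for length and depth, served only for levels between genes. The strand setting and annotation release are not given in the sources used here.

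Of 58051 identifiers, 57447 matched a symbol of GENCODE 29. The edgeR quasi-likelihood test (edgeR 4.0.16, R 4.3.3) was fitted with TMM factors, filterByExpr, the group and the experiment number, once over the 35 whole-culture libraries (21750 genes) and once over the 12 fraction libraries (18885 genes), with Benjamini-Hochberg adjustment over all genes tested. Calls needed an adjusted p under 0.01 and 2-fold. By the design text an experiment runs through the 12 time points (r3 has 11 here, without P9), so its number pairs libraries; deviations of same-numbered libraries from their group means correlated at 0.53 on average for P4 and P5, 0.65 for the P5 fractions and -0.01 for t0 and 36 h (13293 genes). Replicates are separate differentiations of 1 line. A group with at most 3 counts in every library was taken at 3 counts per library for a bound.

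The 9 members and all lists were chosen with earlier results of these data known. All members were named, and of the other anterior genes up to 5 called ones with the largest change each way at 36 h and P5, and the 3 genes most like each member with a highest group mean of at least 100. Outside this rule, and with their levels known, *LHX9* was named as a relative of *LHX2*, *GBX2* at P5, and *EMX2*, *FEZF2* and *PAX6* at 36 h. Alternatives were DESeq2 1.42.0, other size factors, filters, thresholds and fits, no experiment term, leaving out each experiment and, chosen after seeing the data, leaving out the r1 library of P10.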

Additional observations from a re-analysis of the deposited data

How the results depend on the processing

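Of 667 alternative values, 600 kept their direction and side of the call, 25 gained a call, 33 lost one and 9 turned; of 294 for called values, 261 kept the call and none turned. Of the 9 genes, those called lower at 36 h numbered 4 at an adjusted p under 0.05 (4.21% of all genes), 1 without the replicate block, the experiment term that carries the pairing (1.29%), 1 with the compared groups alone (0.493%) and 1 to 4 on leaving out an experiment (0.12% to 2.98%); DESeq2 called 1 higher (2.78%). Where the mean had to reach 100 normalized counts, P5 against t0 had 1 higher (6.44%) and 3 lower (7.8%), P10 1 higher (9.47%) and 3 lower (8.74%), and P5 against 36 h 1 higher (3.79%). Leaving out an experiment gave 3 to 6 lower at P5 (6.18% to 12.3%), 1 to 3 higher at P10 (8.36% to 13.3%) and 0 to 3 higher from 36 h to P5 (1.7% to 5.66%). The compared groups alone gave 0 higher at P10 (3.88%), and P5 against 36 h had 1 higher without the replicate block (5.04%), and 3 lower at an adjusted p under 0.05 (11.6%) or with all 47 libraries (8.92%). From P8 to P9, 1 was higher at an adjusted p under 0.05 (3.41%), by DESeq2 (2.6%), with all 47 libraries (2.16%) and without the r1 library of P10 (1.97%). The values that turned, none of them called, were *OTX1* at 36 h without the replicate block (0.83) and between P8 fractions without r2 (0.81, and -1.49 without r3; the gene was not tested without r1), *OTX2* from 36 h to P5 without r1 (-3.72 to 0.53) and between P8 fractions without the block (-0.06), by DESeq2 (-0.01), with all 47 libraries (-0.08) and without r1 (-0.51 to 0.42), and *EN2* between fractions without r1 (-0.32 to 0.74 at P5, -0.22 to 0.8 at P8). The cause was not tested. Counts of 3 or fewer limit *LHX5*, *SIX3*, *FEZF1*, *EN1* and *EN2*, and P9 rests on 2 libraries.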
